A study of Mus musculus with 18 samples.

Results

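The 10 genes described here carry fatty acids into the adipocyte and build triglyceride from them: Cd36, Lpl, Fabp4, Fabp5, Acsl1, Gpam, Agpat2, Lpin1, Dgat1 and Dgat2. They were taken by name, as the uptake, activation and esterification genes of fat storage, and all 10 were found among the 33440 genes listed in each of 18 mouse RNA-seq libraries. IRF3 is a transcription factor of innate immunity, and the design asks which adipocyte genes change when it is made constitutively active or deleted. In the first experiment, stromal vascular fraction (SVF) cells from the inguinal fat of IRF3-2D mice, which carry an allele for a constitutively active IRF3 that Cre switches on, were differentiated in culture. On day 6 they received either AAV-GFP, giving 3 libraries called WT, or AAV-GFP-Cre, giving 3 libraries called FI3OE, and they were used on day 8. The WT cells of this experiment therefore carry the same allele, the FI3OE cells differ from them by Cre as well as by active IRF3, and the medium of both held rosiglitazone at 1 µM, an agonist of PPARγ, the transcription factor that drives fat cell genes, and insulin at 5 µg/ml. In the second, RNA bound to tagged ribosomes of adipocytes was pulled down by translating ribosome affinity purification (TRAP) from epididymal white fat of Ad-NuTRAP mice (WT, 6 libraries) and of FI3KO-Ad-NuTRAP mice (FI3KO, 6 libraries), whose floxed Irf3 is deleted by Cre under the adipocyte promoter Adipoq, on the C57BL/6 background, after 8 weeks of high-fat diet (HFD) at thermoneutrality. The fat pads for cultures of this kind came from mice aged 4 to 6 weeks, with the sex given both as male and as male and female, and males of the diet studies began the diet at 8 weeks of age, without a separate statement for the TRAP mice. The labels call the libraries biological replicates without naming the animal or culture of each, so the p-values measure the spread between libraries only.

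Adipocytes take up fatty acids that lipoprotein lipase (Lpl) frees from circulating triglyceride. CD36 helps them across the plasma membrane, FABP4 and FABP5 bind them inside the cell, and acyl-CoA synthetases such as ACSL1 couple them to coenzyme A. Glycerol-3-phosphate then receives acyl chains in sequence, by a GPAT (Gpam encodes the mitochondrial enzyme) and an AGPAT (Agpat2), a lipin (Lpin1) removes the phosphate to leave diacylglycerol, and DGAT1 or DGAT2 adds the last acyl chain. Loss of Agpat2 causes lipodystrophy in people and mice, and most genes of the pathway are targets of PPARγ.

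Libraries held between 21541334 and 40490283 reads assigned to transcripts. Levels are given as CPM, the reads of a gene scaled to one total for every library, and each of the 10 genes had at least 1212 reads in every library. Irf3 itself was at 90.8 to 100.0 CPM in FI3OE and 56.8 to 58.6 CPM in WT SVF-derived adipocytes, and at 12.4 to 18.8 CPM in FI3KO against 17.2 to 23.2 CPM in WT TRAP libraries, where the ranges overlap (log2 fold change -0.35, adjusted p = 0.0198). Among the TRAP libraries, replicates 1 and 2 of both genotypes stood apart from replicates 3 to 6, and the difference within each set is given beside many of the TRAP results. None of the 8 adipocyte, 14 macrophage, 8 endothelial, 7 fibroblast or 5 mesothelial marker genes was at 0 in a whole group. The summed adipocyte markers were between 4086 and 4469 CPM in the cultures and between 14671 and 24354 CPM in TRAP, while macrophage markers summed to between 2253 and 2516 CPM in the cultures and to at most 127 CPM in TRAP.

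In FI3OE SVF-derived adipocytes, the genes of fat uptake and storage did not move as a block. Transcripts of Cd36, Fabp5, Acsl1, Agpat2, Dgat1 and Dgat2 were higher than in WT, those of Lpl, Gpam and Lpin1 were lower, and Fabp4 did not pass the test. A gene was called when its p, adjusted by Benjamini-Hochberg over all 16105 genes tested, was 0.05 or less in the quasi-likelihood test of edgeR. That rule called 37% of all genes (20.2% higher and 16.8% lower), so 9 called genes of 10 is to be read against a comparison in which small differences pass. None of the 10 reached a log2 fold change of 1 in size, which 3.62% of genes did together with the adjusted p. The median log2 fold change of the 10 genes was 0.16, beside 0 over all genes tested. When all 18 libraries shared one fit, 3 of the 9 calls remained (Fabp5 and Agpat2 higher, Lpin1 lower). The genes that lost their call had log2 fold changes of about the same size there. They were 0.20 for Cd36, -0.25 for Lpl, 0.19 for Acsl1, -0.34 for Gpam, 0.15 for Dgat1 and 0.28 for Dgat2.

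In TRAP RNA from FI3KO adipocytes, 5 of the 10 genes passed the same test. Gpam and Fabp4 were higher, and Fabp5, Acsl1 and Dgat2 were lower, against 37.4% of 13624 genes called in that comparison (19.1% higher and 18.3% lower). Fabp5 alone also had a log2 fold change of 1 or more in size, as 6.61% of genes did. Cd36, Lpl, Agpat2, Lpin1 and Dgat1 did not pass, and the median of the 10 log2 fold changes was -0.13, beside 0.02 over all genes tested. The adipocyte markers were lower in sum in FI3KO (14671 to 18698 CPM) than in WT TRAP (19316 to 24354 CPM), with Lep (leptin) at a mean of 2975 against 9581 CPM. The direction of the sum rests on Lep. Mean levels in FI3KO were higher for Adipoq (2961 against 2267 CPM), Plin1, Retn and Cfd (2395 against 685 CPM). They were lower for Cidec (4571 against 5289 CPM), Pparg and Slc2a4. Of the 8 adipocyte markers, Lep was the one that was lower by the test, Plin1, Retn and Cfd were higher, and 4 did not pass. Summed fibroblast markers were 540 to 1020 CPM in FI3KO and 968 to 2196 CPM in WT, but 966 to 1020 and 968 to 974 CPM in replicates 1 and 2. Of the 7, Col1a1 (a mean of 271 against 1005 CPM) and Dpp4 were lower, Dcn was 2.57-fold higher, and 4 did not pass. The part of these markers in the results was not tested. TRAP takes RNA from tagged ribosomes of adipocytes, so these sums do not count cells. Fewer cells of a type, less RNA per cell and the purity of the pull-down cannot be told apart.

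**Figure D1:**
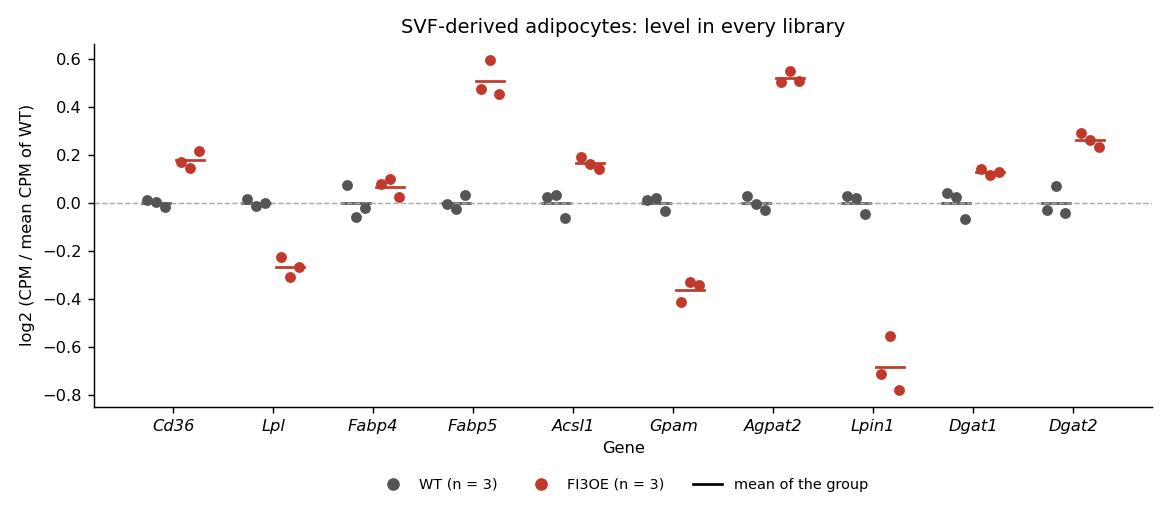
Level of each gene in every library of SVF-derived adipocytes, as log2 of the CPM over the mean CPM of the 3 WT libraries (vertical axis), for WT (grey, n = 3) and FI3OE (red, n = 3), with short lines at group means. The groups overlap for Fabp4 only, and Lpin1 lies furthest below WT.

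**Figure D2:**
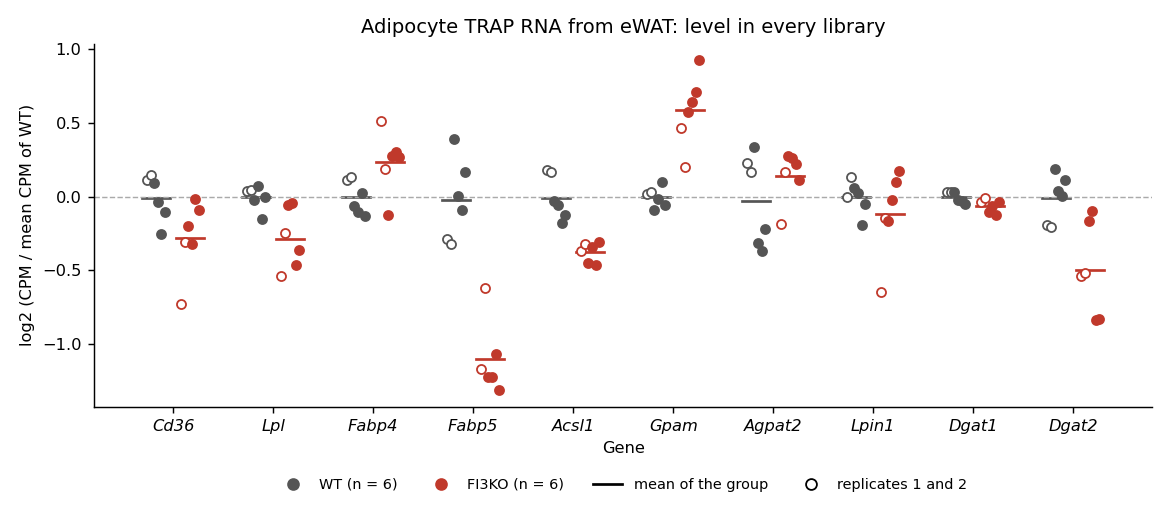
Level of each gene in every TRAP library, as log2 of the CPM over the mean CPM of the 6 WT libraries (vertical axis), for WT (grey, n = 6) and FI3KO (red, n = 6), with open symbols for replicates 1 and 2 and short lines at group means. The groups do not overlap for Fabp5, Acsl1 and Gpam.

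Uptake begins with Lpl, the secreted lipase (GRCm38 chromosome 8, 68880491 to 68907448), and Cd36, the membrane fatty acid carrier (chromosome 5, 17781690 to 17888801). Lpl was measured at 4414, 4176 and 4289 CPM in the FI3OE libraries and at 5215, 5116 and 5161 CPM in WT. Every FI3OE library lay below every WT library, at a log2 fold change of -0.25 ± 0.027 (standard error, SE; adjusted p = 2.36e-05). Cd36 went the other way, with 1619, 1594 and 1671 CPM in FI3OE and 1453, 1444 and 1422 CPM in WT. Its groups did not overlap either, at a log2 fold change of 0.19 ± 0.031 SE (adjusted p = 0.00043). Groups without overlap were common in this experiment, since 49.8% of all genes tested had them (24.1% higher and 25.7% lower), against 9 of the 10 genes here (6 higher and 3 lower). In the cultures, adipocyte markers summed to 4247 to 4469 CPM in FI3OE and 4086 to 4167 CPM in WT, macrophage markers to 2253 to 2270 and 2348 to 2516 CPM, and fibroblast markers to 12694 to 12845 and 13467 to 13857 CPM. Of the 8 adipocyte markers 3 were called higher (Adipoq, Plin1 and Retn) and 3 lower (Lep, Cfd and Slc2a4), and of the 14 macrophage markers 3 higher (C1qa, C1qc and Trem2) and 4 lower, with Mrc1 at a mean of 235 against 436 CPM. Of the 7 fibroblast markers 2 were called lower (Col1a1 and Col3a1) and 0 higher. Their part in the results for the 10 genes was not tested.

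Neither uptake gene passed the test in the FI3KO comparison. Lpl spanned 7472 to 10529 CPM in FI3KO (median 8772) and 9753 to 11392 CPM in WT (median 10972). Of the 6 FI3KO libraries, 4 lay below the lowest WT library, with a log2 fold change of -0.23 at an adjusted p of 0.0621. This result sits at the threshold, with an adjusted p between 0.0158 and 0.221 over 25 alternative settings, of which 7 passed, among them those without FI3KO replicate 3 (0.0388) and without FI3KO replicate 4 (0.035). Replicates 1 and 2 gave -0.37 and replicates 3 to 6 gave -0.15, and neither passed (adjusted p = 0.0717 and 0.221). Cd36 spanned 2995 to 4894 CPM in FI3KO (median 4150) and 4156 to 5482 CPM in WT (median 5051), with 3 FI3KO libraries below all of WT and a log2 fold change of -0.22 (adjusted p = 0.137).

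Cd36 was also a gene whose difference was not the same in the replicate sets of TRAP libraries. Replicates 1 and 2 gave a log2 fold change of -0.57, and replicates 3 to 6 one of -0.03. The difference between these, -0.54, passed the test of the interaction between genotype and replicate set (adjusted p = 0.0368), as it did for 26.5% of all genes. In replicates 3 to 6 the level of Cd36 hardly separated the genotypes, with 4306, 3968, 4894 and 4657 CPM in FI3KO and 5276, 4826, 4156 and 4612 CPM in WT. The lowest value of all 12 libraries, 2995 CPM, was that of FI3KO replicate 1. Endothelial markers, which mark cells that also make Cd36 and Fabp4, summed to 62.2 and 99 CPM in FI3KO replicates 1 and 2 and to at most 46.6 CPM in every other TRAP library. Whether this bears on Cd36 was not tested.

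The intracellular binding proteins, whose genes lie on chromosome 3 at 10204088 to 10208576 (Fabp4) and 10012548 to 10016607 (Fabp5), split. Fabp4, the abundant adipocyte form, was at 1725, 1749 and 1661 CPM in FI3OE and 1723, 1571 and 1610 CPM in WT. These ranges overlap (log2 fold change 0.08, adjusted p = 0.104), and the gene passed without WT replicate 1 (adjusted p = 0.0305) and with the length offset (adjusted p = 0.0213). Fabp5, the minor form in fat cells, was at 358, 389 and 353 CPM in FI3OE and at 257, 253 and 263 CPM in WT. It rose 1.44-fold, at a log2 fold change of 0.52 ± 0.045 SE (adjusted p = 3.73e-06), and no FI3OE library fell within the WT range.

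In FI3KO, Fabp5 was lower and Fabp4 higher. Fabp5 spanned 43.4 to 70.1 CPM in FI3KO (median 47.1) and 86.3 to 142 CPM in WT (median 105). All 6 FI3KO libraries lay below all 6 WT libraries, as for 9.82% of all genes tested. Groups without overlap in either direction made up 15.2% of genes here, against 3 of the 10 (Fabp5, Acsl1 and Gpam). The fold was 0.49, at a log2 fold change of -1.03 ± 0.14 SE (adjusted p = 0.000216), the largest change of the 10 genes in either comparison. Fabp4 spanned 3955 to 6154 CPM in FI3KO (median 5199) and 3919 to 4716 CPM in WT (median 4252). Although 5 of the 6 FI3KO libraries lay above the highest WT library, FI3KO replicate 3, at 3955 CPM, was near the bottom of the WT range, and the log2 fold change of 0.30 ± 0.11 SE was called only narrowly (adjusted p = 0.0441). Leaving out single libraries gave an adjusted p of 0.0113 to 0.107, and the call was lost without any of FI3KO replicates 1, 2, 4, 5 and 6 or WT replicates 3, 4, 5 and 6, the value without WT replicate 6 being 0.26 at 0.107.

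The size of the Fabp5 difference depended on the replicate set. On the log2 scale, replicates 1 and 2 gave -0.51 (adjusted p = 0.116) and replicates 3 to 6 gave -1.29 (adjusted p = 4.08e-06), a difference of 0.78 that passed the interaction test (adjusted p = 0.0125). For Fabp4 the sets gave 0.30 and 0.31. Macrophages make Fabp5 and Cd36 as well, and 10 of the 13 macrophage markers tested were lower in FI3KO TRAP, Cd14 being the one that was higher. The summed macrophage markers were 15.4 to 50.8 CPM in FI3KO and 35.3 to 127 CPM in WT. In replicates 3 to 6 they were 15.4 to 18.9 CPM in FI3KO and 76.2 to 127 CPM in WT, whereas in replicates 1 and 2 they were 38.2 to 50.8 and 35.3 to 36.4 CPM. In those 4 libraries Fabp5 was at 48.0 and 70.1 CPM in FI3KO and 88.5 and 86.3 CPM in WT. The part of macrophage RNA in the Fabp5 difference was not tested. A Fabp5 pseudogene listed by RefSeq was not among the genes quantified, so reads from it cannot be told apart from those of Fabp5.

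**Figure D3:**
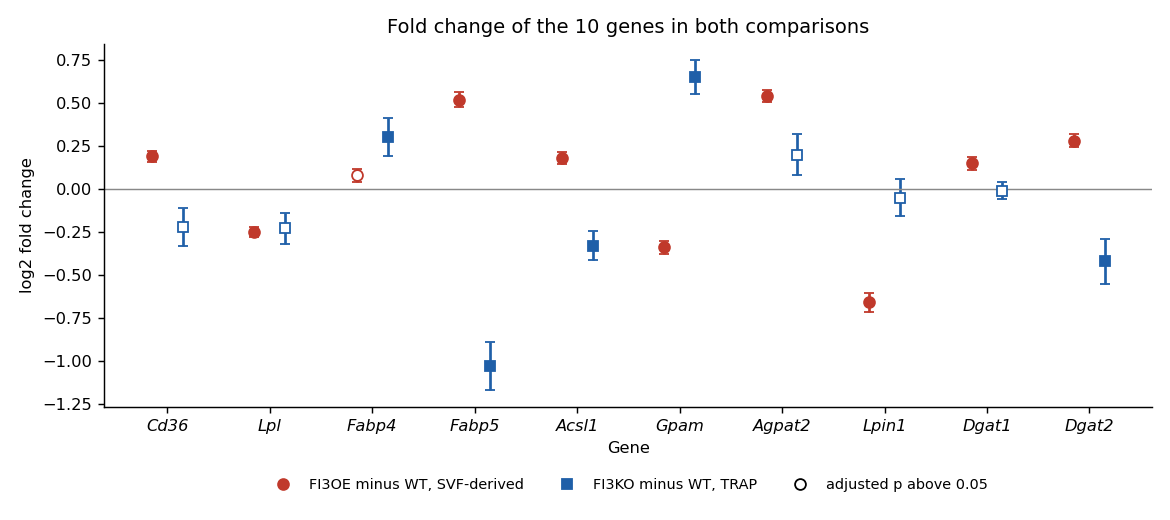
Log2 fold change of each gene (vertical axis, error bars are the standard error) for FI3OE minus WT in SVF-derived adipocytes (red circles, n = 3 each) and FI3KO minus WT in TRAP (blue squares, n = 6 each), with open symbols where the adjusted p is above 0.05. Fabp5, Acsl1, Gpam and Dgat2 are filled in both comparisons and lie on opposite sides of 0.

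Acsl1 is the main long-chain acyl-CoA synthetase of adipocytes and traps fatty acids as acyl-CoA. It was at 1042, 1021 and 1007 CPM in FI3OE and 929, 935 and 875 CPM in WT, without overlap, a log2 fold change of 0.18 ± 0.034 SE (adjusted p = 0.00156). In FI3KO it spanned 1706 to 1904 CPM (median 1837), and in WT TRAP 2082 to 2661 CPM (median 2282). All 6 FI3KO libraries were below all 6 WT libraries, and the log2 fold change was -0.33 ± 0.083 SE (adjusted p = 0.0083). Replicates 1 and 2 gave -0.46 (adjusted p = 0.0212) and replicates 3 to 6 gave -0.25 (adjusted p = 0.00995). Per transcript length the separation was lost. As TPM, the relative abundance of transcripts after division by their length, Acsl1 spanned 1440 to 1902 in FI3KO and 1670 to 2238 in WT, and with an offset for the average transcript length the log2 fold change was -0.14 (adjusted p = 0.345).

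The annotation gives Acsl1 several starts on chromosome 8 (GRCm38, 46471037 to 46536051, forward strand), and the estimated transcript levels can be read by start. RefSeq windows of 300 bases around 2 of these starts, 250 before and 50 after, are shown to let the levels of their transcripts be set beside the sequence, with capitals where a CCAAT box (CCAAT) or sterol response element (TCACNCCAC) matched on either strand. These are the windows chr8:46470787-46471086 and chr8:46490716-46491015 of GRCm38.p6, forward strand.
Acsl1 first start: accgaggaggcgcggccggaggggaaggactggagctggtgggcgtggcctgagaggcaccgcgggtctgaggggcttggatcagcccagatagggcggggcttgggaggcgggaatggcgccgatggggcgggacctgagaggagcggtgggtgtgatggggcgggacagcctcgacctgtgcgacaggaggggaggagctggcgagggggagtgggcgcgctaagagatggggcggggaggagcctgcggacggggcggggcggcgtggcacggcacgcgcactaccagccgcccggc
Acsl1 second start: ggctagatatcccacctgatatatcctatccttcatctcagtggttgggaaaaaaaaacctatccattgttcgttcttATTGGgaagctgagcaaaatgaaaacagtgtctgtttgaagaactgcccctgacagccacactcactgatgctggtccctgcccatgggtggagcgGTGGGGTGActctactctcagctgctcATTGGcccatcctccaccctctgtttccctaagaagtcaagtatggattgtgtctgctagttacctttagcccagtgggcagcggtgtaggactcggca
The first window holds no match, and the second holds CCAAT on the reverse strand with its first printed base at -172 and at -49 (the start being 0) and TCACNCCAC on the reverse strand at -76. The matches do not overlap. Over all 32851 windows of the RefSeq table, 37.4% hold CCAAT and 1.24% hold TCACNCCAC. Transcripts that start in the first window were at 515 to 636 TPM in FI3KO and 634 to 881 TPM in WT TRAP, and those of the second at 186 to 268 and 283 to 447 TPM. The second pair of ranges is apart and the first meets at its edge. These starts held a mean of 34.2% and 13.9% of Acsl1 TPM in FI3KO and 40.5% and 17.7% in WT. Most of the rest lay in the transcripts Acsl1-208 (a mean of 405 TPM in FI3KO and 424 TPM in WT), Acsl1-202 (250 and 241 TPM) and Acsl1-209 (212 and 128 TPM), of which 1 had the lower mean in FI3KO and 2 the higher. In the cultures the first window gave 335 to 341 TPM in FI3OE and 300 to 320 TPM in WT, and the second 119 to 152 and 127 to 164 TPM, which overlap. Short unstranded reads limit how well such transcripts can be separated.

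Esterification starts with Gpam, which had the largest rise of the 10 genes in FI3KO. Gpam spanned 780 to 1287 CPM in FI3KO (median 1034) and 638 to 726 CPM in WT TRAP (median 679). No FI3KO library fell within the WT range, as for 5.39% of genes on the higher side, and the increase was 1.57-fold, a log2 fold change of 0.65 ± 0.097 SE (adjusted p = 0.000434). In FI3OE the same gene was lower, with 639, 675 and 669 CPM against 855, 861 and 829 CPM in WT. The log2 fold change was -0.34 ± 0.036 SE (adjusted p = 2.04e-05), again without overlap. In FI3KO the difference was smaller in replicates 1 and 2, at 0.38 (adjusted p = 0.106), than in replicates 3 to 6, at 0.78 (adjusted p = 8.03e-05), but the interaction did not pass (adjusted p = 0.0798).

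Gpam lies on chromosome 19 (GRCm38, 55067268 to 55127238, reverse strand) and also has 2 RefSeq windows, one at the 5′ end of the gene and the other inside it. They are printed because nearly all Gpam signal could be assigned to a start in one or the other. The windows are chr19:55127189-55127488 and chr19:55099428-55099727 of GRCm38.p6, reverse strand, with capitals as above.
Gpam upstream start: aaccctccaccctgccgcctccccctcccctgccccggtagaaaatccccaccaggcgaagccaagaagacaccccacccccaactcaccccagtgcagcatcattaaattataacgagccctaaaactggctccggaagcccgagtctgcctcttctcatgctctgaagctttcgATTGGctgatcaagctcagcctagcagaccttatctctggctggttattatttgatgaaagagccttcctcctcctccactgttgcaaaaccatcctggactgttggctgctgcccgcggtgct
Gpam internal start: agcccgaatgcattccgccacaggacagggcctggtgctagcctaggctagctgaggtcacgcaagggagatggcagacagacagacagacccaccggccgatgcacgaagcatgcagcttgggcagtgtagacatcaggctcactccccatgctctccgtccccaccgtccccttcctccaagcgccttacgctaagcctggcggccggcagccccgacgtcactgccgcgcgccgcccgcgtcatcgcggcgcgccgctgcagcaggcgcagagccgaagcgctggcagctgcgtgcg
The upstream window holds CCAAT on the reverse strand at -74, and the internal window holds none of the motifs searched. Transcripts from the upstream start were at 220 to 369 TPM in FI3KO and 173 to 197 TPM in WT TRAP. Those from the internal start were at 29.6 to 55.2 TPM in FI3KO and 28.2 to 41.8 TPM in WT, which overlap. The upstream transcripts carried 87.9% ± 2.1 of Gpam TPM in FI3KO and 83.3% ± 2.6 in WT (SD, n = 6 each). In the cultures the FI3OE range lay below the WT range for both sets of transcripts, at 170 to 185 against 218 to 229 TPM from the upstream start and 44.4 to 49.6 against 57.4 to 67.5 TPM from the internal start. An antisense gene, AC110206.1, overlaps Gpam and the internal window and had a mean of 38.4 reads per library, and the libraries do not keep strand.

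RefSeq windows were at hand for 5 of the 10 genes, 7 windows in all, the others being those of Agpat2, Cd36 and Lpin1. The core of the element that interferon regulatory factors bind, a pair of GAAA with any 2 bases between them, was searched on both strands and was in none of the 7, beside 3.44% of all 32851 windows. The TATA box (TATAAA) was in none of the 7 either, beside 13.6% of all windows. No quantified transcript starts in the Cd36 window, the Lpin1 transcript that starts in its window was at 0 TPM in every library, and the one in the Agpat2 window carried at most 2.0% of Agpat2 TPM as a group mean, so no level is set beside these windows.

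Agpat2 and Lpin1, the steps that follow, had the largest changes in FI3OE. Their genes lie on chromosome 2 (26593057 to 26604417) and chromosome 12 (16535669 to 16610966). Agpat2 was at 1057, 1091 and 1060 CPM in FI3OE and 762, 744 and 732 CPM in WT. It rose 1.45-fold (log2 fold change 0.54 ± 0.033 SE, adjusted p = 2.41e-07), with the groups far apart relative to their spread. Lpin1, the phosphatidic acid phosphatase that is also a transcriptional coregulator, was at 150, 168 and 143 CPM in FI3OE and 251, 249 and 238 CPM in WT. It fell to 0.632 of WT (log2 fold change -0.66 ± 0.055 SE, adjusted p = 3e-06), with no overlap. Agpat2 shares a stretch of chromosome 2 with Egfl7 on the opposite strand, which had a mean of 210 reads per library.

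In TRAP neither of these genes passed over the 6 libraries of each genotype. Agpat2 spanned 305 to 420 CPM in FI3KO (median 397) and 268 to 437 CPM in WT (median 343), a log2 fold change of 0.20 (adjusted p = 0.234). The FI3KO range lay inside that of WT, where replicates 4 to 6 were at 268 to 298 CPM and replicates 1 to 3 at 389 to 437 CPM. Lpin1 spanned 214 to 379 CPM in FI3KO (median 316) and 293 to 367 CPM in WT (median 338), with a log2 fold change of -0.05 (adjusted p = 0.744). For both genes the sign turned with the replicate set, from -0.14 to 0.38 for Agpat2 and from -0.38 to 0.11 for Lpin1 (replicates 1 and 2, then 3 to 6). Agpat2 passed within replicates 3 to 6 (adjusted p = 0.031), and the interaction passed for neither gene (adjusted p = 0.102 and 0.0645).

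The last step, which makes triglyceride, is shared by the unrelated enzymes DGAT1 (chromosome 15, 76502015 to 76511953) and DGAT2 (chromosome 7, 99153658 to 99182719). Dgat2 was at 726, 712 and 698 CPM in FI3OE and 582, 624 and 577 CPM in WT, a rise with no overlap (log2 fold change 0.28 ± 0.039 SE, adjusted p = 0.000187). Dgat1 was at 155, 152 and 153 CPM in FI3OE and 145, 143 and 134 CPM in WT. Its log2 fold change of 0.15 ± 0.038 SE was the smallest that was called (adjusted p = 0.0116). The call was lost without WT replicate 3 (0.12, adjusted p = 0.0533) and with the length offset (0.13, adjusted p = 0.103). In TRAP, Dgat2 spanned 4168 to 6970 CPM in FI3KO (median 5171) and 6449 to 8504 CPM in WT (median 7570). It was lower in FI3KO (log2 fold change -0.42 ± 0.13 SE, adjusted p = 0.0202), although FI3KO replicates 3 and 4, at 6638 and 6970 CPM, lay within the WT range. In replicates 1 and 2 alone the difference was -0.26 (adjusted p = 0.0562), against -0.49 within replicates 3 to 6 (adjusted p = 0.0261). Dgat1 spanned 230 to 249 CPM in FI3KO and 242 to 256 CPM in WT. It had the narrowest spread of the 10 genes in TRAP, with a coefficient of variation of 3.1% in FI3KO and 2.5% in WT, and its log2 fold change was -0.01 (adjusted p = 0.847).

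Side by side, 4 of the genes were called in both comparisons, and all 4 moved in opposite directions. Fabp5, Acsl1 and Dgat2 were higher in FI3OE and lower in FI3KO, and Gpam was lower in FI3OE and higher in FI3KO. The FI3OE calls of Acsl1, Gpam and Dgat2 were lost with all 18 libraries in one fit. In FI3KO, the call of Acsl1 was lost with the length offset. Those of Fabp5, Gpam and Dgat2 were lost in replicates 1 and 2 alone. Of the 13093 genes tested in both comparisons, 2227 were called in both, and 61.5% of those had opposite signs. The experiments have no library in common, but they differ in depot, culture, diet and RNA preparation as well as in IRF3, and the difference between them was not tested. Agpat2, Lpin1, Cd36, Lpl and Dgat1 were called in FI3OE alone, and Fabp4 in FI3KO alone.

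How much of an enzyme family is carried by its main form was followed for 6 families, as a share of the family's summed TPM. In TRAP, Fabp4 made up 99.1% ± 0.209 of FABP transcripts (Fabp3, Fabp4 and Fabp5) in FI3KO and 97.9% ± 0.502 in WT (SD, n = 6 each). The ranges, 98.8 to 99.3% and 97.2 to 98.4%, did not overlap (two-sided exact permutation test, p = 0.00216, the smallest that 6 against 6 can give, and 0.026 adjusted over the 12 shares tested). Without any one library the difference stayed between 1.11 and 1.35 percentage points. The adjusted p was then 0.0519, the least that the smaller number of libraries allows. In replicates 3 to 6 the difference was 1.54 points (adjusted p = 0.114). Fabp3 was at most 0.706 TPM in any TRAP library, so this share is set by Fabp4 and Fabp5. It restates their levels in the same libraries and is not a separate result. Dgat2 made up 94.6% ± 1.14 of DGAT transcripts in FI3KO and 95.9% ± 0.425 in WT, which did not pass after adjustment (exact permutation p = 0.0303, adjusted p = 0.15). The other TRAP shares differed little, with exact permutation p-values of at least 0.268.

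In the cultures all 6 shares had groups that did not overlap, but 3 libraries against 3 cannot give an exact permutation p below 0.1, and the adjusted p was 0.15 for each. Fabp4 made up 84.3% of FABP transcripts in FI3OE and 87.6% in WT. Agpat2 was at 62.3% ± 0.363 of AGPAT transcripts in WT and 68.3% ± 0.807 in FI3OE, and Gpam was at 68.5% ± 0.418 of GPAT transcripts in WT and 62.9% ± 1.73 in FI3OE (SD, n = 3 each). Lpin1 was at 86.4% of lipin transcripts in WT and 82.1% in FI3OE. Acsl1 and Dgat2 were at 83.6% and 76.9% in WT and at 85.4% and 78.6% in FI3OE.

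**Figure D4:**
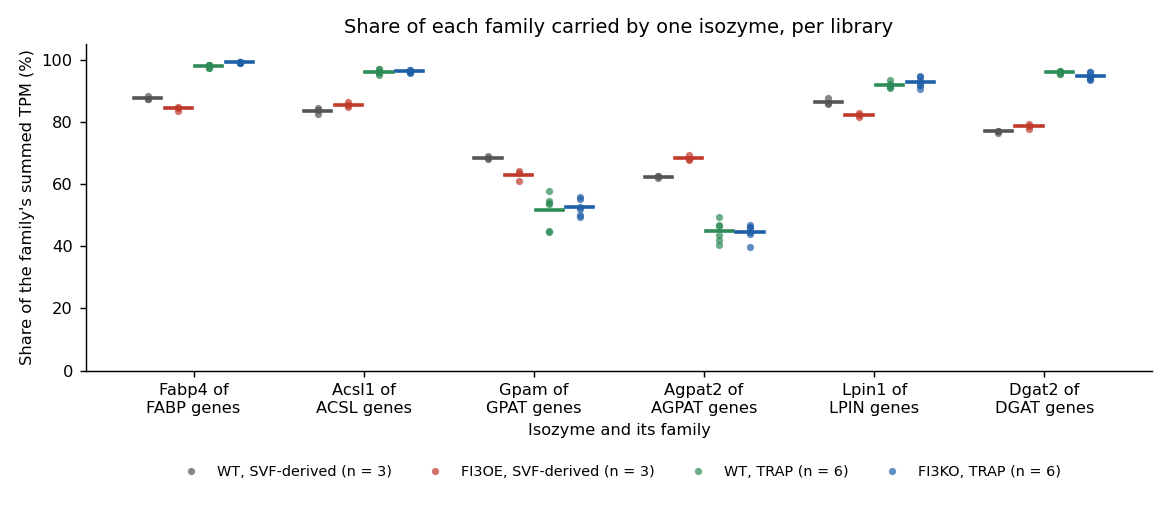
Share of each enzyme family's summed TPM carried by the isozyme named (vertical axis, percent) in every library of the 4 groups, with short lines at group means. Fabp4, Acsl1, Lpin1 and Dgat2 carry most of their families in every library, while Gpam and Agpat2 carry 39.7 to 69.2%.

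The partners that fill the rest of these families were measured too. Among GPATs, Gpat3 and Gpat4, which act at the endoplasmic reticulum, were at 167 and 131 TPM in FI3KO and 115 and 101 TPM in WT TRAP. Both were higher in FI3KO (log2 fold change 0.57, adjusted p = 0.0427, and 0.52, adjusted p = 0.000357), and the share of Gpam was 52.5% against 51.5%. In replicates 1 and 2 alone Gpat3 was at -0.22 and Gpat4 at 0.42 (adjusted p = 0.115 and 0.11), and in replicates 3 to 6 they were at 1.08 and 0.58. The call of Gpat3 was lost with library totals (adjusted p = 0.0514), with no filter (0.055), and without any of FI3KO replicates 1, 3, 4, 5 and 6 or WT replicates 3 to 6 (up to 0.0976). In FI3OE, Gpat3 was higher as well (0.15, adjusted p = 0.0154) and Gpat4 did not pass (-0.04, adjusted p = 0.449). Gpat2 was at most 0.778 TPM in any library. Among AGPATs, Agpat3 was at 706 and 592 TPM in FI3KO and WT TRAP (log2 fold change 0.22, adjusted p = 0.00624), a level close to that of Agpat2. For Agpat3, replicates 3 to 6 gave 0.28 (adjusted p = 0.000819) and the other 2 gave 0.13 (adjusted p = 0.272). Agpat1, Agpat4 and Agpat5 did not pass in TRAP, at log2 fold changes of -0.09, -0.66 and 0.08, and for Agpat4 replicates 3 to 6 gave -1.41 and the other 2 gave 1.57 (interaction adjusted p = 0.014). In FI3OE, Agpat4 was higher (0.31, adjusted p = 0.0183), Agpat5 was lower (-0.16, adjusted p = 0.0397), and Agpat1 and Agpat3 did not pass (0.12 and 0.03). Agpat1 did pass with no filter (adjusted p = 0.0364), with the replicate block (0.05) and without WT replicate 2 (0.0487). The FI3OE calls of Gpat3, Agpat4 and Agpat5 were lost with all 18 libraries in one fit (adjusted p = 0.851, 0.865 and 0.634) and with the length offset (0.105, 0.471 and 0.451). Their log2 fold changes were 0.15, 0.31 and -0.16 in the first and 0.13, 0.20 and -0.08 in the second. Leaving out single libraries also ended them: for Gpat3 without FI3OE replicate 1, WT replicate 1 or WT replicate 3 (0.0515 to 0.0573), for Agpat4 without FI3OE replicate 3, WT replicate 1 or WT replicate 3 (0.0614 to 0.0771), and for Agpat5 without any library but FI3OE replicate 2 (0.0603 to 0.136). Agpat5 was lost as well with DESeq2 (0.109) and with no filter (0.0962). Acsl5 was the next acyl-CoA synthetase, and it was higher in FI3OE (0.42, adjusted p = 1.66e-05) and lower in FI3KO (-0.28, adjusted p = 0.0169), the same directions as Acsl1. In FI3KO its replicates 3 to 6 gave -0.36 and the other 2 gave -0.06 (interaction adjusted p = 0.0584), and the call was lost with the length offset (-0.20, adjusted p = 0.172). Acsl3 was lower in FI3OE (-0.44, adjusted p = 2.24e-05, or -0.44 at 0.159 with all 18 libraries in one fit) and did not pass in FI3KO (0.24, adjusted p = 0.244), while Acsl4 and Lpin2 were called in neither comparison. Lpin3, at 12 CPM in WT cultures and 8.31 CPM in WT TRAP, was lower in both FI3OE (-0.65, adjusted p = 0.000298) and FI3KO (-0.67, adjusted p = 0.00727). For Lpin3 in FI3KO, replicates 3 to 6 gave -0.96 and the other 2 gave -0.07 (adjusted p = 0.789), and the interaction passed (adjusted p = 0.0224). Fabp3 and Acsl6 were too low to be tested, at no more than 3.21 TPM.

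The baseline level was set by TPM in the 2 WT groups. In WT SVF-derived adipocytes the order was Fabp4 (3573 ± 129 TPM, SD, n = 3), Lpl (3151 ± 34), Agpat2 (1269 ± 31), Cd36 (1099 ± 33), Dgat2 (639 ± 37), Acsl1 (574 ± 39), Fabp5 (502 ± 7.5), Gpam (291 ± 11), Dgat1 (192 ± 10) and Lpin1 (151 ± 10). No neighbours in this order overlapped, Dgat2 and Acsl1 being the closest, with 610 to 681 and 532 to 609 TPM. Together the 10 genes made up 1.14% of all TPM.

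In WT TRAP RNA the order was Fabp4 (10623 ± 635 TPM, SD, n = 6), Dgat2 (8238 ± 859), Lpl (6339 ± 539), Cd36 (3580 ± 496), Acsl1 (1958 ± 224), Agpat2 (642 ± 134), Dgat1 (346 ± 12), Fabp5 (228 ± 47), Gpam (224 ± 6.6) and Lpin1 (192 ± 14). Here Fabp5, at 182 to 300 TPM, overlapped both Gpam (215 to 231 TPM) and Lpin1 (169 to 210 TPM) and could not be ordered against either, and the 10 genes made up 3.24% of all TPM. Of the 10, Dgat2 had rank 2 in TRAP and rank 5 in the cultures, and Agpat2 rank 6 in TRAP and rank 3 in the cultures. Fabp4 ranked 4th and Dgat2 9th of all genes in TRAP. The WT groups differ in depot, culture, diet and preparation together, so their levels are given side by side with no test.

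**Figure D5:**
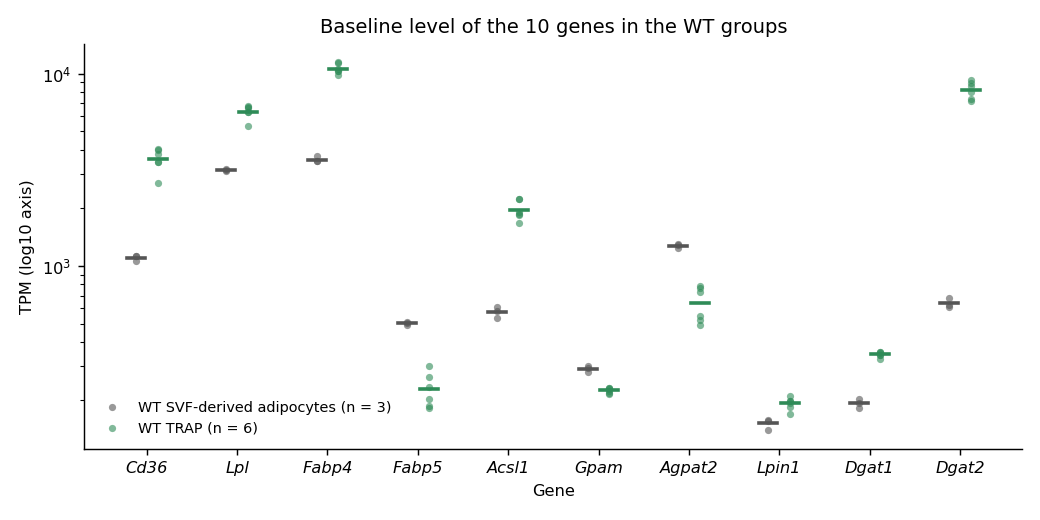
TPM of each gene (vertical axis, log10 scale) in every library of WT SVF-derived adipocytes (grey, n = 3) and WT TRAP (green, n = 6), with short lines at group means. Fabp4 is highest in both, and Agpat2, Fabp5 and Gpam are the genes whose TRAP values lie below those of the cultures.

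Beside the 10 genes, 31 others of the same pathway were followed, covering further fatty acid carriers, regulators of lipoprotein lipase, isozymes and the supply of glycerol-3-phosphate. In FI3OE, 9 of the 27 tested were higher and 8 lower, with a median log2 fold change of 0.05, where 20.2% of all genes tested were called higher and 16.8% lower. The largest changes were a fall of Pck1, the enzyme that feeds glycerol-3-phosphate synthesis from pyruvate in fat (log2 fold change -1.17, adjusted p = 2.94e-05, 4.13 against 9.38 CPM), a rise of Angptl8, an inhibitor of lipoprotein lipase with its relatives (1.02, adjusted p = 2.23e-06, 39.1 against 19.4 CPM), and the fall of Lpin3. With all 18 libraries in one fit none of the 3 passed (adjusted p = 0.355, 0.316 and 0.0509), while the log2 fold changes were -1.16, 1.03 and -0.65. In FI3KO, 7 of the 28 tested were higher and 7 lower, with a median of -0.08, beside 19.1% and 18.3% of all genes. Mogat2, a monoacylglycerol acyltransferase, had the largest fall (-1.82, adjusted p = 0.00278, 14.5 against 53.1 CPM), and Pck1 (1.36, adjusted p = 0.0327, 4475 against 1779 CPM) and Mogat1 (1.03, adjusted p = 0.0149, 19.2 against 9.6 CPM) had the largest rises. The call of Pck1 was lost without FI3KO replicate 5 or 6 or any of WT replicates 3 to 6 (adjusted p = 0.0605 to 0.0703).

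Several of these genes differed by replicate set. Pck1 had a log2 fold change of 2.65 in TRAP replicates 3 to 6 and of 0.07 in replicates 1 and 2, and the difference passed the interaction test (adjusted p = 3.33e-05). Mogat1 was at 1.82 and -0.16 (interaction adjusted p = 2.45e-05), Mogat2 at -2.31 and -0.49 (0.0379), and Gpat3 at 1.08 and -0.22 (8.94e-05). Among the 10 genes of uptake and esterification, Cd36 and Fabp5 were those that passed it.

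Part of the TPM of some of the 10 genes was assigned to transcripts that the annotation does not class as coding. Short unstranded reads limit how well these transcripts can be separated too. For Lpl, the transcript Lpl-203, annotated as a target of nonsense-mediated decay, carried 45.1% ± 0.65 of TPM in WT SVF-derived adipocytes and 38.8% ± 2.7 in WT TRAP (SD, n = 3 and n = 6), and the coding Lpl-201 carried 49.6% ± 0.98 and 61.0% ± 2.6. In FI3OE the coding share was 47.7% ± 0.35, with libraries at 47.3 to 48.0% against 48.7 to 50.6% in WT. In FI3KO it was 62.8% ± 2.1. Lpl-203 is annotated at 1900 bases and Lpl-201 at 4115 bases, so Lpl-203 held a smaller share of reads than of TPM. Lpin1 was carried mainly by Lpin1-204 and Lpin1-207, at 52.5% and 38.1% in WT TRAP and at 30.0% and 39.5% in WT SVF-derived adipocytes.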

How the data were processed

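Per the labels and the study's methods, the authors trimmed reads with fastp, quantified them with Salmon (version 1.4.0) on GENCODE M24 transcripts of GRCm38 with sequence and GC bias correction, and deposited for each library the estimated count (expected count, not normalized), TPM and effective length of 118733 transcripts. The libraries came from rRNA-depleted RNA and do not keep strand. Here transcripts were assigned to genes with GENCODE release 21 (117850 matched, the other 883 each standing as a separate gene, with 0.37 to 1.08% of reads), and estimated counts were summed per gene and rounded. Each experiment was fitted alone in R 4.3.3 with edgeR 4.0.16 (filterByExpr, TMM, quasi-likelihood test, Benjamini-Hochberg over all genes, no covariates), called at an adjusted p of 0.05. Printed CPM use library totals, and fold changes use TMM. The study's log2 cutoff of 1 was an alternative. The scripts were tested on simulated data with known changes. Shares were tested by exact permutation in scipy 1.17.1 (Python 3.11.15). Promoter windows are RefSeq's (GRCm38.p6). Other alternatives were DESeq2 size factors, the DESeq2 1.42.0 Wald test, library totals, no filter or at least 10 reads in every library, a length offset, all 18 libraries, the replicate block, the removal of single libraries and of mitochondrial and rRNA genes, and the TRAP replicate sets. Named beside the members were the 3 other pathway genes with the largest change per comparison and the isozyme partners. The members and gene lists were chosen with earlier results of these data known. WT TRAP replicates 1 and 2 were closer to each other than any other pair (chi-square per degree of freedom 2.49, other pairs of one group 3.68 to 243.09), still above sampling noise, and were kept as 2 libraries.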

Additional observations from a re-analysis of the deposited data

Results flagged for a closer look

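Fabp5 in FI3KO replicate 2 of the TRAP libraries, at 70.1 CPM, lay far from the other 5 libraries of its group, which held 43.4 to 51.4 CPM. The value is below all WT libraries. It was 1 of 20 groups of libraries examined in this way, and chance alone would give 1.

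The FI3KO difference of Cd36 was not the same in TRAP replicates 1 and 2 as in replicates 3 to 6, by -0.54 on the log2 scale (adjusted p = 0.0368 for the interaction, by the quasi-likelihood test of edgeR). Fabp5 differed between the sets by 0.78 (adjusted p = 0.0125), the fall being larger in replicates 3 to 6. Over all genes 26.5% passed this test. What sets the replicates apart is not given in the labels and was not tested.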

How the results depend on the processing

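In FI3OE the counts of 6 higher and 3 lower genes became 2 and 1 when all 18 libraries shared one fit (1572 genes called in all, against 5960), and 0 and 0 with the log2 cutoff of 1 (583). The length offset called 3800 genes. In FI3KO the 2 higher genes became 1, Fabp4 being lost, with library totals only, no filter, at least 10 reads in every library, the length offset and the replicate block. They became 0, with 1 lower and 500 genes called, in TRAP replicates 1 and 2 only, and 0, with 1 lower and 901 called, with the cutoff. Agpat2 was gained in replicates 3 to 6 only (0.38, adjusted p = 0.031), and leaving out single libraries gave 1 to 2 higher. The cause of these changes was not tested, beyond fewer samples or a stricter rule. The sign turned for these genes and shares, of which Gpat3 and Mogat1 are called over all libraries: with the length offset Lpin2 (-0.04 in FI3OE, -0.08 in FI3KO), in replicates 3 to 6 Lpin1 (0.11), Agpat1 (0.04), Agpat5 (-0.08) and the shares of Gpam (-1.76 points) and Agpat2 (1.43), in replicates 1 and 2 Agpat2 (-0.14), Dgat1 (0.01), Gpat3 (-0.22), Agpat4 (1.57), Lpin2 (-0.01) and Mogat1 (-0.16), and with shares of CPM Acsl1 (-0.586), Agpat2 (1.41) and Lpin1 (-0.0171). Single libraries moved Agpat3 in FI3OE from -0.01 to 0.07 and, in FI3KO, Lpin1 from -0.12 to 0.02, Dgat1 from -0.04 to 0.00, Agpat5 from -0.03 to 0.13, and the shares of Acsl1 from -0.147 to 0.213, Gpam from -0.38 to 2.23 and Agpat2 from -1.17 to 0.685 points. Same-numbered libraries did not deviate together (correlations -0.16 to -0.01 in the cultures and -0.48 to 0.08 in TRAP). The labels name no pairs, and deviations from the means of so few libraries cannot exclude pairing. Among the 10 genes the block changed the call of Fabp4 in FI3KO alone (0.29, adjusted p = 0.0563 in edgeR). It also ended those of Gpat3 in FI3KO (0.64, adjusted p = 0.0722) and Agpat5 in FI3OE (adjusted p = 0.0633), and Agpat1 in FI3OE passed with it (0.12, adjusted p = 0.05). Depth limits little for the 10 genes, each of which had at least 1212 reads in every library. Some partner genes had fewer, with at most 244 reads in any TRAP library for Agpat4 and 811 in any culture library for Agpat5.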
